A study of Homo sapiens with 282 samples.

Results

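Blebbistatin at 100 uM was compared with its vehicle, 1% DMSO, after 24 h in OCI-LY3 cells, an established human line of diffuse large B cell lymphoma. Arrays were chosen by their titles, 3 for blebbistatin and 8 for DMSO, and by an upper quartile of at least 8 on the log2 scale over all probe sets. All 3 blebbistatin arrays and 7 of the 8 DMSO arrays met that limit, out of 282 arrays in the series, of which 234 met it. The series profiled 14 compounds on HT HG-U219 arrays, and cells grown in IMDM with 10% FCS were dosed in multiwell plates and lysed well by well. The other groups used here are blebbistatin 10 uM at 24 h (2 of 3 arrays kept), blebbistatin 100 uM at 6 h (3 of 3), vincristine 0.01 uM at 24 h (3 of 3), monastrol 100 uM at 24 h (2 of 3), culture medium alone at 24 h (2 arrays) and DMSO at 6 h (8 of 8). Blebbistatin 100 uM (0 of 3 kept) and DMSO (4 of 8) at 12 h are given as values. All groups are the same line, and the labels do not say whether replicate wells came from separate cultures, so p-values measure the spread between arrays, which may be technical.

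Blebbistatin binds the motor domain of myosin II and slows its release of phosphate, so that the motor is held in a state with weak grip on actin. Non-muscle myosin II pulls actin filaments together, in the cortex of migrating lymphocytes and in the contractile ring that splits a dividing cell. Cultured cells that go through mitosis with myosin II blocked often fail to split and become binucleate, and p53, a transcription factor that holds back division after damage or an abnormal mitosis, can stop such cells in the following G1. Vincristine, which binds tubulin, and monastrol, which inhibits the spindle kinesin KIF11, also act on dividing cells, but on the spindle.

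The B cell label was checked against marker genes. IRF4, a transcription factor of activated B cells, averaged 13.04 in both blebbistatin and DMSO arrays, and PAX5, the B lineage factor, averaged 7.49 in blebbistatin and 7.46 in DMSO arrays. None of 7 measured B cell markers passed the test, and 4 of them, MS4A1, CD79A, CD79B and CD22, averaged 4.72 to 5.05 in blebbistatin and 4.68 to 5.15 in DMSO arrays, below the median gene of every array. The mean level of the 7 B cell markers was 6.57 to 6.70 in blebbistatin and 6.54 to 6.77 in DMSO arrays. The mean level of 8 myeloid markers was 4.18 to 4.26 in blebbistatin and 4.28 to 4.46 in DMSO arrays, and that of 6 NK cell markers was 5.29 to 5.45 in blebbistatin and 5.23 to 5.50 in DMSO arrays. In the same order, T cell markers averaged 5.99 to 6.22 and 5.94 to 6.21, and fibroblast markers 6.08 to 6.12 and 6.07 to 6.16. Epithelial markers averaged 4.64 to 4.87 and 4.66 to 5.02. Of the 38 markers of T, NK, myeloid, fibroblast and epithelial cells 6 passed the test, where 14.2% of all genes did. MUC1 (-0.51) and CSF1R (-0.47) were lower, and THY1 (0.42), NCR1 (0.33), CD4 (0.27) and PDGFRA (0.22) higher. THY1 and the T cell marker CD5 had high levels in both groups, 10.86 and 10.13 with blebbistatin and 10.44 and 10.15 with DMSO. The upper quartiles were 8.16 to 8.25 in blebbistatin and 8.17 to 8.25 in the kept DMSO arrays, and the array left out, DMSO replicate 7, had 7.98. Among the kept DMSO arrays, replicates 5 and 6 had the highest bioB hybridisation control (10.10 and 9.72) and the largest ACTB 3' minus 5' difference (0.78 and 0.63), against at most 9.42 and 0.26 in blebbistatin arrays.

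At 24 h, 2582 of 18239 genes differed between blebbistatin 100 uM and DMSO at an adjusted p under 0.05, 14.2% of those tested. Of these, 1035 were higher (5.67%) and 1547 lower (8.48%). Most differences were small: the median called rise was 0.33 and the median called fall -0.36 on the log2 scale, and 19 genes passed 1 log2 unit, 11 higher and 8 lower. By list, most p53 targets and 12 of 42 interferon-stimulated genes were higher, and most genes of DNA replication, DNA repair and mitosis were lower. Of the 15 largest rises 5 were p53 targets, and of the 15 largest falls 9 belonged to the G1/S, origin, DNA synthesis and DNA repair lists. The lists were written with earlier results of these data known, so such overlaps may be partly built in. With all 94 arrays of 24 h in the fit, low-signal arrays included, 9 genes passed; without DMSO replicates 5 and 6 there were 2251. In bulk RNA, fewer cells in a cycle phase and less RNA per cell cannot be told apart.

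**Figure D1:**
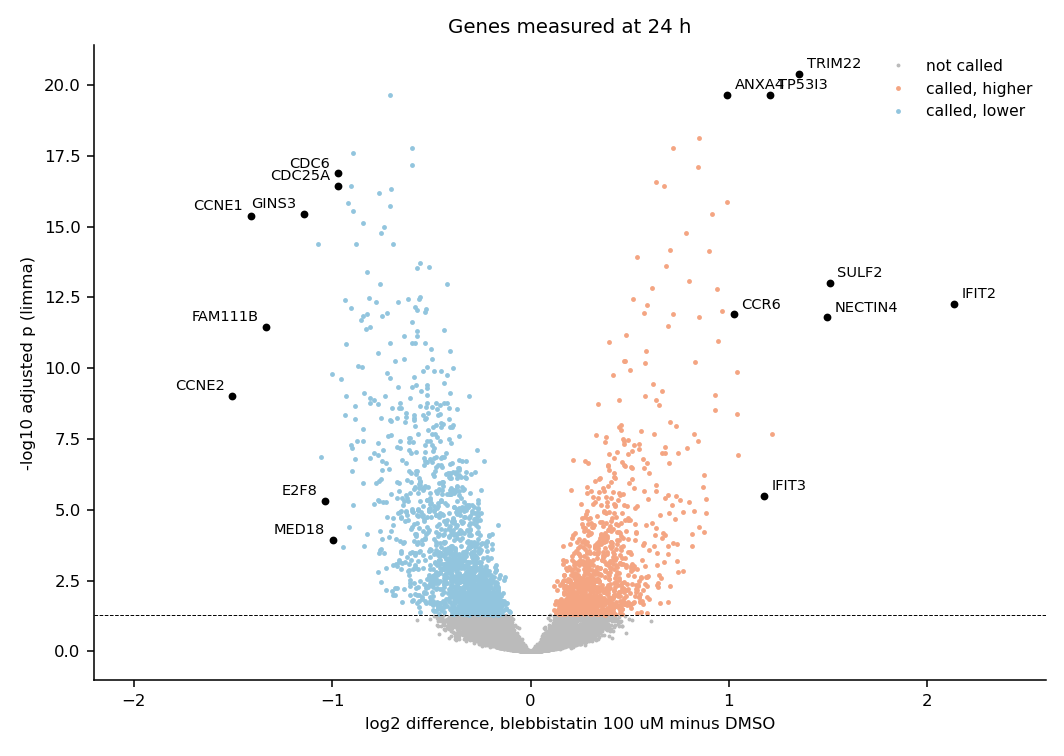
Log2 difference of blebbistatin 100 uM minus DMSO at 24 h (x axis) against -log10 of the adjusted limma p (y axis) for 18239 genes, with the 2582 genes past an adjusted p of 0.05 marked. IFIT2 stands farthest to the right at 2.14 and CCNE2 farthest to the left at -1.50.

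The 15 largest rises among genes whose blebbistatin arrays all lay above all DMSO arrays (762 genes, 4.18%) were led by IFIT2, SULF2, NECTIN4, TRIM22, TRIM67, TP53I3 and IFIT3. NECTIN4, a cell adhesion molecule of the nectin family, read 7.68, 7.52 and 7.64 in blebbistatin arrays, against a lowest value of 5.70, a median of 6.18 and a highest value of 6.57 in DMSO arrays (log2 difference 1.49 ± 0.15 SE, adjusted p = 1.61e-12). CCR6, the receptor for the chemokine CCL20, read 8.38, 8.79 and 8.59 with blebbistatin, against 7.23, 7.59 and 7.82 as the lowest, median and highest DMSO values (1.02 ± 0.10, adjusted p = 1.25e-12). In neither gene did the groups overlap. The remaining rises were TRIM67, a brain-enriched TRIM ubiquitin ligase (1.22), TENM1, a teneurin (1.05), NOL4L (1.04), ANXA4, a calcium-dependent membrane-binding annexin (0.99), and DPYS, an enzyme of pyrimidine breakdown (0.99). Several of these rises rest on 1 probe set: the other gave -0.01 for TENM1, 0.19 for NOL4L and 0.28 for TRIM67, and those for NECTIN4 ran from 0.27 to 1.49.

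Genes that p53 is known to activate rose in larger share than any other list described here. Of 37 measured p53 targets, 31 rose, none fell and 6 did not pass the test, where 5.67% of all genes rose. The median was 0.56, against -0.0033 over all genes. Averaged over the list, the level was 9.20, 9.29 and 9.21 in the blebbistatin arrays and 8.64 to 8.74 in the kept DMSO arrays, with no overlap. The list had 2 rises with all arrays kept and 28 without DMSO replicates 5 and 6.

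TP53I3, a quinone oxidoreductase of the p53 apoptosis programme, read 9.85, 10.00 and 9.95 with blebbistatin, against 8.57, 8.68 and 8.92 as the lowest, median and highest DMSO values (1.21 ± 0.08, 2.31-fold, adjusted p = 2.19e-20). SULF2, an extracellular sulfatase that trims heparan sulfate, read 8.12, 8.07 and 7.92 against 6.21, 6.51 and 6.93 (1.51 ± 0.14, adjusted p = 9.4e-14). The lowest blebbistatin array lay about a log2 unit above the highest DMSO array in both genes. RRM2B, the p53-induced ribonucleotide reductase subunit, read 10.60, 10.46 and 10.24 with blebbistatin, against 9.01, 9.44 and 9.68 in DMSO arrays (1.04 ± 0.12). TRIM22, which is both a p53 target and an interferon-stimulated gene, read 10.73, 11.21 and 11.08 with blebbistatin, against 9.39, 9.72 and 9.93 (1.36 ± 0.08). Its 6 probe sets all gave higher values, 1.23 to 1.81. SESN1, a stress-induced inhibitor of mTORC1 signalling, rose by 0.97 and GADD45A, a stress sensor of growth arrest, by 0.85. DRAM1, a lysosomal protein of p53-linked autophagy that is not on the list, rose by 0.95. CDKN1A, the inhibitor of cyclin-dependent kinases that p53 is best known for, rose by 0.41 and is named here after its value was seen.

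**Figure D2:**
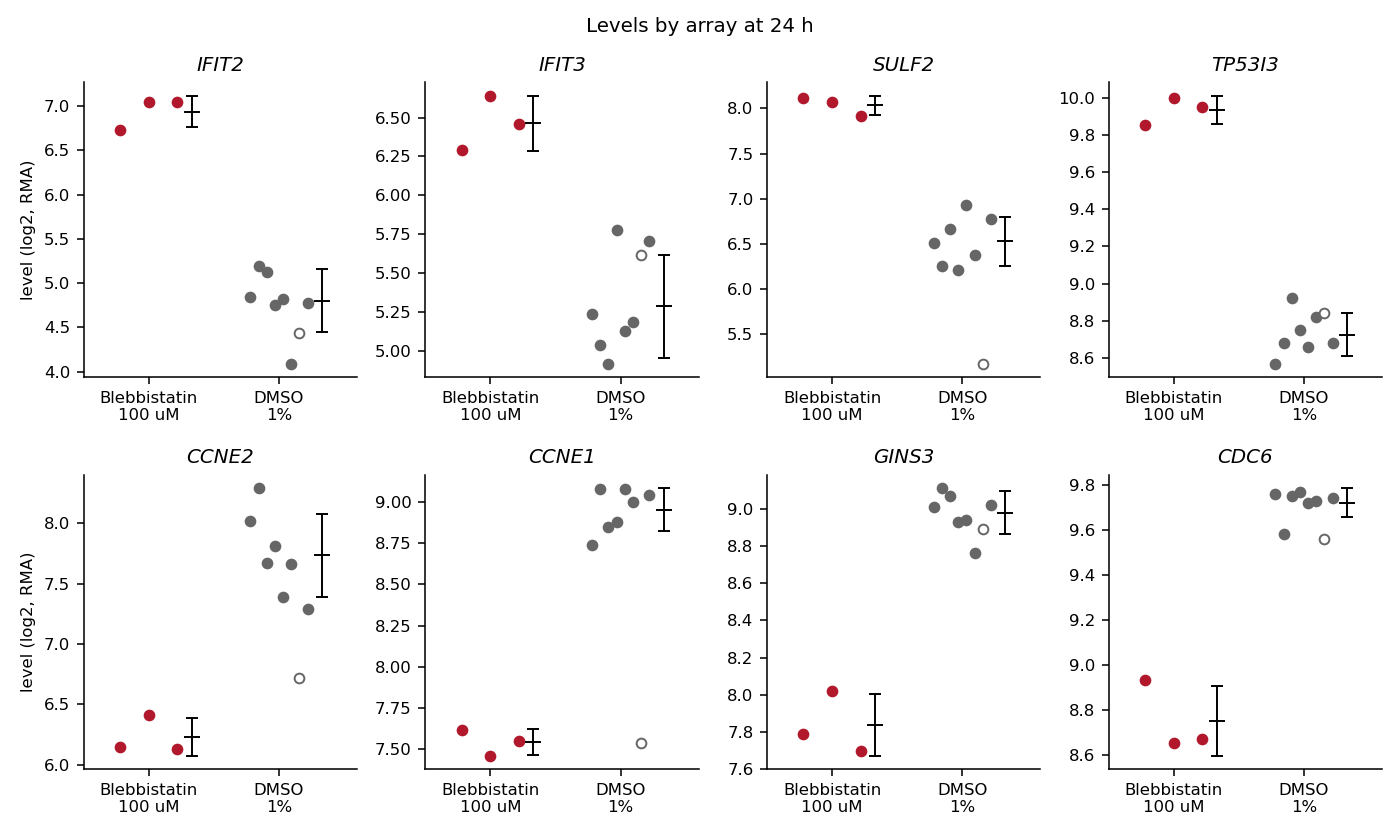
Level on the log2 scale (y axis) of 8 genes in each blebbistatin 100 uM array (left in each panel) and each DMSO array (right) at 24 h, with bars for the mean ± SD of the kept arrays and an open circle for the DMSO array left out. IFIT2, IFIT3, SULF2 and TP53I3 lie higher and CCNE2, CCNE1, GINS3 and CDC6 lower in all 3 blebbistatin arrays than in the 7 kept DMSO arrays. All 8 come from the largest rises and falls, which were chosen among genes without overlap.

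Among 27 measured regulators of apoptosis, 6 rose and none fell, with a median of 0.09, where 5.67% of all genes rose and 8.48% fell. Lists can share genes, so this count may repeat members of the p53 list. The pro-apoptotic BCL2 family members BAX (0.73), BBC3, also called PUMA (0.56), and PMAIP1, also called NOXA (0.51), rose, and so did CASP8, an initiator caspase of death receptors (0.31). The anti-apoptotic members BCL2L2 (0.36) and BCL2 (0.27) rose as well. BAX read 11.60, 11.63 and 11.54 with blebbistatin against 10.39, 10.96 and 11.21 as the lowest, median and highest DMSO values. BBC3 read 9.58, 9.77 and 9.61 against 9.01, 9.08 and 9.19. PMAIP1 read 12.22, 12.63 and 12.36 against 11.58, 11.90 and 12.26, so that its groups overlapped while those of BAX and BBC3 did not. BCL2 depended on the probe set: its mean over all probe sets differed by -0.0153. For CASP8, 1 of 8 probe sets passed, with a range of -0.07 to 0.53. For BCL2L2, 1 of 3 passed, with a range of 0.07 to 0.36.

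PIDD1, the p53-induced scaffold that activates caspase 2 when extra centrosomes are present, read 9.46, 9.55 and 9.43 with blebbistatin against 8.32, 8.63 and 9.05 in DMSO arrays (0.79 ± 0.11, adjusted p = 6.46e-08). CASP2, its caspase, read 11.41, 11.37 and 11.35 against 11.62, 11.72 and 11.85 (-0.36 ± 0.06). The blebbistatin arrays were thus above DMSO for the scaffold and below it for the caspase, without overlap. Over the 20 measured Hippo and PIDDosome genes, 3 rose and 1 fell, with a median of 0.03, where 5.67% of all genes rose and 8.48% fell. The other risers were MOB1B (0.35), a co-activator of LATS kinases, and TEAD1 (0.29), a DNA-binding partner of YAP. The probe sets of TEAD1 ran from -0.07 to 0.29. The kinases LATS1 (-0.17) and LATS2 (-0.02), which act upstream of YAP and are named after their values were seen, did not pass the test.

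Interferon-stimulated genes gave the largest single rise but a small shift as a group. Of 42 measured members, 12 rose, none fell and 30 did not pass, with a median of 0.14, where 5.67% of all genes rose. Averaged over the list, blebbistatin arrays read 6.19, 6.22 and 6.25 and kept DMSO arrays 5.91 to 6.05, while the arrays of medium alone read 6.27 and 6.29, above both. With all arrays kept 2 members rose, and without DMSO replicates 5 and 6 again 12.

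IFIT2, which binds viral RNA and blocks its translation, read 6.73, 7.04 and 7.04 with blebbistatin, against 4.09, 4.82 and 5.19 as the lowest, median and highest DMSO values and 4.48 and 4.51 in medium (2.14 ± 0.21, 4.40-fold, adjusted p = 5.48e-13). Its other probe set gave 1.01. IFIT3, its partner in the IFIT complex, read 6.29, 6.64 and 6.46 against 4.92, 5.19 and 5.78 in DMSO arrays (1.18 ± 0.19, adjusted p = 3.24e-06). Neither gene overlapped between the groups, which was a condition for the largest rises. PARP14, a mono-ADP-ribosyltransferase, read 6.59, 6.70 and 6.64 against 5.33, 5.81 and 5.98 in DMSO arrays (0.87 ± 0.14), and ISG15, the ubiquitin-like modifier, 10.39, 10.55 and 10.50 against 9.55, 9.65 and 9.78 (0.80 ± 0.07). ISG15 stood clear of the DMSO and medium arrays, but PARP14 had 6.37 and 6.30 in medium, nearer to blebbistatin than to DMSO. EPSTI1, another interferon-induced gene, rose by 0.59.

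In 27 measured genes of interferon production and signalling, 5 rose and 2 fell, with a median of 0.08. Over all genes 5.67% rose and 8.48% fell. STING1, the adaptor that responds to cytosolic DNA, read 10.18, 10.24 and 10.08 with blebbistatin against 9.26, 9.49 and 9.75 in DMSO arrays (0.69 ± 0.06, adjusted p = 2.52e-14). CGAS, the enzyme that makes its ligand (-0.44), and SAMHD1, which breaks down deoxynucleotides (-0.46), fell. The probe sets of SAMHD1 ran from -0.46 to 0.37. IRF9, the DNA-binding subunit of the interferon-activated ISGF3 complex (0.30), and TBK1, the kinase downstream of STING (0.27), rose. IFNB1, the interferon beta gene, differed by 0.01 and did not pass, and is named after its value was seen.

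Promoter windows of RefSeq (250 bases before to 50 after each annotated start, GRCh38.p14) were searched on both strands for the interferon-stimulated response element, GAAA repeated 2 times with any 2 bases between. It was present in 31 of 44 windows from the 34 interferon-stimulated genes that had one (70.5%), against 3.57% of 35116 windows. IFIT2 is not among them. Windows of 100 bases are shown from 3 genes with a match that were among the largest rises of the list, with the matches in capitals. The pair in ISG15 overlaps, and those of IFIT3 read on the opposite strand as TTTC.

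IFIT3, chr10:89327813-89327912, plus strand: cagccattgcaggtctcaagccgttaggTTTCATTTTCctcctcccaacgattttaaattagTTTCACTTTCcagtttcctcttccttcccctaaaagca
PARP14, chr3:122680765-122680864, plus strand: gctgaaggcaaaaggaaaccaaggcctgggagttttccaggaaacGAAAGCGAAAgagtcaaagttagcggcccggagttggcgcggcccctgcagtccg
ISG15, chr1:1013342-1013441, plus strand: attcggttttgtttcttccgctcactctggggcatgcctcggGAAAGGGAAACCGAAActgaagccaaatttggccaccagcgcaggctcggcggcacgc

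The 15 largest falls among genes whose blebbistatin arrays all lay below all DMSO arrays (1176 genes, 6.45%) held 9 genes of the G1/S, origin, DNA synthesis and DNA repair lists. The others included KIZ, a centrosomal protein (-1.06), MED18, a Mediator subunit (-0.997), ZRANB3, which remodels stalled replication forks (-0.95), and GALR2, a galanin receptor (-0.93). KIZ had a low level in both groups, 3.48 to 3.92 with blebbistatin and 4.62 to 5.05 with DMSO. Its 5 probe sets ran from -1.06 to 0.15, and 2 of them passed. The other probe set of ZRANB3 gave -0.21 and did not pass.

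Genes that take cells from G1 into S phase held the largest falls. Both E-type cyclins, which activate CDK2 at this step, were the deepest. CCNE2 read 6.15, 6.41 and 6.13 with blebbistatin against 7.29, 7.67 and 8.29 as the lowest, median and highest DMSO values (-1.50 ± 0.18, adjusted p = 9.49e-10). CCNE1 read 7.62, 7.46 and 7.55 against 8.74, 9.0 and 9.08 (-1.41 ± 0.11, adjusted p = 4.08e-16). The groups were separated by about a log2 unit in both genes, and DMSO replicate 7, left out for low signal, read 6.72 and 7.54. CDC25A, the phosphatase that activates CDK2, fell by 0.97, E2F8, a repressive E2F, by 1.03, E2F1, the activating E2F, by 0.84 and SKP2, the F-box protein that degrades p27, by 0.84. The other probe set of SKP2 gave -0.08 and did not pass. Of 25 measured G1/S genes 13 fell and 2 rose, with a median of -0.21, where 8.48% of all genes fell and 5.67% rose. The 2 risers were RBL2, the pocket protein p130 of resting cells (0.35), and CCND2, a D-type cyclin (0.13), named after their values were seen.

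Origin licensing and firing fell as a block. Of 30 measured genes, 24 fell and none rose, with a median of -0.60, where 8.48% of all genes fell. The list averaged 8.67, 8.70 and 8.66 in blebbistatin and 9.22 to 9.32 in kept DMSO arrays, a gap with no overlap. GINS3, a subunit of the GINS complex of the replicative helicase, read 7.79, 8.02 and 7.70 against 8.76, 9.01 and 9.11 in DMSO arrays (-1.14 ± 0.09, adjusted p = 3.59e-16). CDC6, which loads the MCM helicase, read 8.93, 8.65 and 8.67 against 9.58, 9.74 and 9.77 (-0.97 ± 0.07). All blebbistatin arrays of both genes lay below all DMSO arrays, which was a condition for the largest falls. CDT1, the other MCM loader (-0.94), ORC1, the largest subunit of the origin recognition complex (-0.96), TICRR, also called treslin, which brings CDC45 to origins (-1.003), and CDC45 itself (-0.88) fell too. DTL, the substrate receptor that degrades CDT1 in S phase, fell by 1.07, and FAM111B, a cell cycle-regulated protease, by 1.33.

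DNA synthesis genes behaved alike, 28 of 30 lower and none higher, with a median of -0.52. RRM2, the S phase ribonucleotide reductase subunit, read 10.25, 10.54 and 10.46 with blebbistatin against 11.17, 11.33 and 11.40 in DMSO arrays (-0.90 ± 0.06). TK1, thymidine kinase, read 9.54, 9.41 and 9.61 against 10.20, 10.41 and 10.68 (-0.89 ± 0.07). RRM2 was thus lower while RRM2B, the p53-induced form, was higher. The histone chaperones ASF1B (-0.84) and CHAF1A (-0.83), the flap nuclease FEN1 (-0.75) and the polymerase subunit POLD1 (-0.75) fell as well. Of 24 measured DNA repair genes 19 fell and none rose, with a median of -0.54. FANCB (-0.90) and FANCI (-0.76) of the Fanconi anaemia pathway, the nuclease EXO1 (-0.88), and the recombination factors RAD54L (-0.88), RAD51AP1 (-0.75) and BLM (-0.73) led them. Clustered histones had 4 falls among 22 measured genes and a median of -0.13, where 8.48% of all genes fell.

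E2F forms TTTCCCGC, TTTCGCGC, TTTGCCGC and TTTGGCGC were searched on both strands in the same promoter windows. They were present in 15 of 35 windows of the origin list (42.9%), 12 of 37 of the DNA synthesis list (32.4%) and 6 of 26 of the G1/S list (23.1%). This compares with 3.31% of all windows and 4.15% of those of measured genes. The DNA repair list had 17.1%, the mitosis list 13.2% and the cytokinesis list 0%. The p53 and interferon-stimulated lists, which held rises and no falls, had 9.09% each. The 4 windows given are those of genes among the deepest falls of the origin and G1/S lists, with the match in capitals.

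GINS3, chr16:58392420-58392519, plus strand: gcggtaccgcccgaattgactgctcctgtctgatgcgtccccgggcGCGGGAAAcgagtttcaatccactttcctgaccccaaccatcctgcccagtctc
CDC6, chr17:40287829-40287928, plus strand: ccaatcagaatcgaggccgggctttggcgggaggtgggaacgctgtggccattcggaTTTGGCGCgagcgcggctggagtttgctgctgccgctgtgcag
CDC25A, chr3:48188408-48188507, minus strand: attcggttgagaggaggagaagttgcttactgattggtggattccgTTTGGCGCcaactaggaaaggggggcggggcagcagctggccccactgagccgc
CDT1, chr16:88803708-88803807, plus strand: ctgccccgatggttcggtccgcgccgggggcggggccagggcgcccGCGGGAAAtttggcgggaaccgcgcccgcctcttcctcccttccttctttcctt

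Mitotic genes were lower almost throughout. Of 37 measured members 36 fell and none rose, with a median of -0.52, where 8.48% of all genes fell. The list averaged 9.11, 9.19 and 9.13 in blebbistatin against 9.60 to 9.76 in kept DMSO arrays. SPC25, of the NDC80 complex that ties kinetochores to microtubules, read 7.94, 8.03 and 8.02 with blebbistatin against 8.75, 8.98 and 9.10 as the lowest, median and highest DMSO values (-0.93 ± 0.10). TTK, the spindle checkpoint kinase MPS1, read 8.75, 8.95 and 8.85 against 9.44, 9.68 and 9.91 (-0.81 ± 0.08). CCNA2, the cyclin of S and G2 phase, read 9.23, 9.43 and 9.37 against 9.87, 10.09 and 10.18 (-0.73 ± 0.08). In none of these did the groups overlap. SPC24 (-0.89), BUB1B, a checkpoint protein (-0.79), and NEK2, a centrosomal kinase (-0.73), fell too. The list had no member past the test with all arrays kept, and 37 falls without DMSO replicates 5 and 6.

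Cytokinesis, the step that myosin II drives, was described by 21 measured genes. Of these 14 fell and none rose, with a median of -0.47, where 8.48% of all genes fell. KIF14 (-0.65), a midbody kinesin, ANLN (-0.62), anillin, which ties the contractile ring to the membrane, DIAPH3 (-0.61), a formin, and AURKB (-0.60), the kinase of the chromosomal passenger complex, were the deepest. ANLN read 8.12, 8.45 and 8.36 with blebbistatin against 8.62, 8.90 and 9.21 in DMSO arrays, and AURKB 9.80, 9.83 and 9.82 against 10.12, 10.44 and 10.57. Both were below DMSO in every array. The abscission factor CHMP4B (0.12) did not pass, and is named after its value was seen.

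The cell cycle genes homology region, TTTGAA or TTCGAA on either strand, is a short element known from promoters of G2/M genes. It was present in 27 of 38 windows of the mitosis list (71.1%) and 11 of 22 of the cytokinesis list (50%), against 16.4% of all windows, 15.4% of the G1/S list, 11.4% of the DNA repair list, 8.11% of the DNA synthesis list and 5.71% of the origin list. The windows of 3 mitotic genes that fell are given, with the matches shown in capitals; NDC80 has a joined pair.

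SPC25, chr2:168890381-168890480, minus strand: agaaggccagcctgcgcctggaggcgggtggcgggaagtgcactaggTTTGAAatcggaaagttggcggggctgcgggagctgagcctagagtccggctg
BUB1B, chr15:40160999-40161098, plus strand: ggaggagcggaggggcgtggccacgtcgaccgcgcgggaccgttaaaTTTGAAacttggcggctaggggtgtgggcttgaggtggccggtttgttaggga
NDC80, chr18:2571507-2571606, plus strand: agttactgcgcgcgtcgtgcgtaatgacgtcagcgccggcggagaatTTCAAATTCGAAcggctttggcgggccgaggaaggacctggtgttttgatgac

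**Figure D3:**
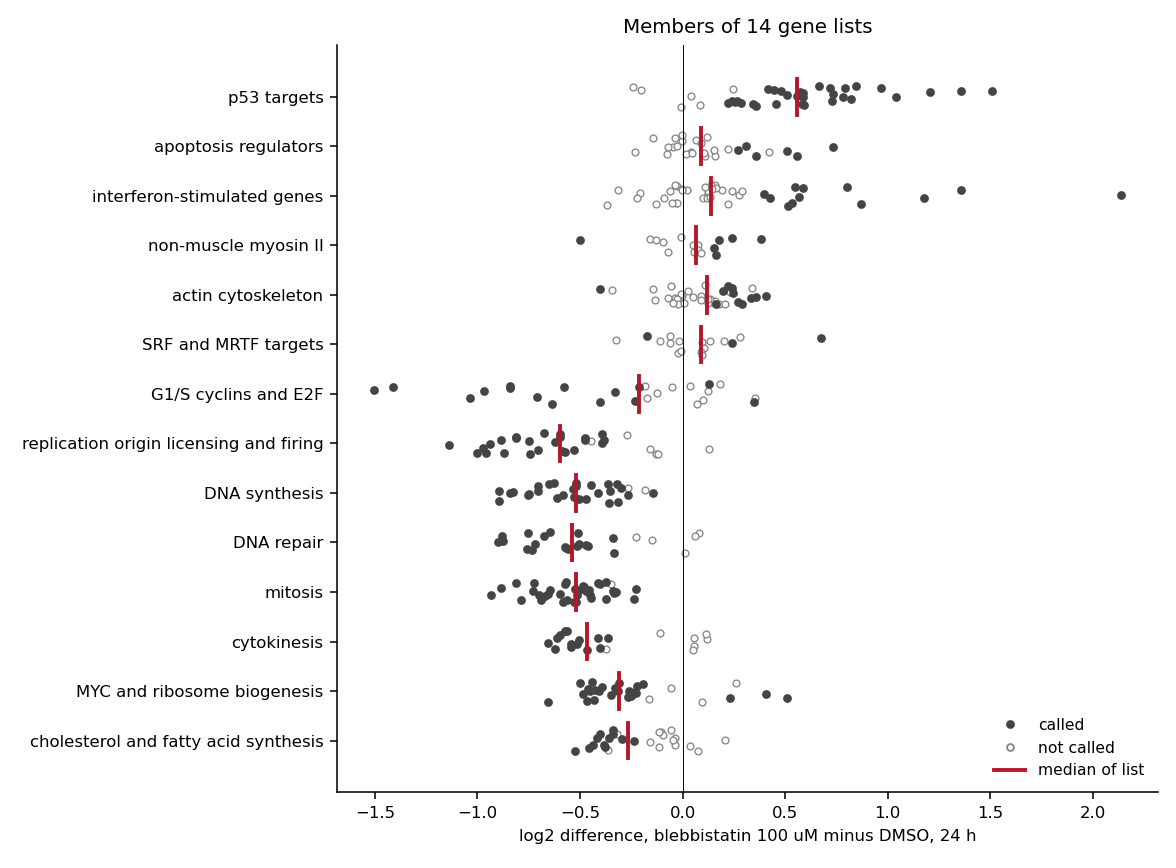
Log2 difference of blebbistatin 100 uM minus DMSO at 24 h (x axis) for each measured gene of 14 lists (rows), filled where the adjusted p was under 0.05, with a red line at each list's median. The p53 list sits to the right with a median of 0.56, and the origin, DNA synthesis, DNA repair, mitosis and cytokinesis lists sit to the left with medians of -0.60 to -0.47.

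Of 16 measured genes of non-muscle myosin II, the drug's target, and its regulators, 5 rose and 1 fell, with a median of 0.06, where 5.67% of all genes rose and 8.48% fell. MYH9, the heavy chain of myosin IIA, read 12.44, 12.56 and 12.49 with blebbistatin against 12.31, 12.35 and 12.38 in DMSO arrays (0.15 ± 0.04, 1.11-fold, adjusted p = 0.00466). MYH10, the heavy chain of myosin IIB, read 11.94, 12.17 and 12.15 against 11.75, 11.88 and 11.92 (0.24 ± 0.05). Both sat just above the DMSO arrays without overlap. The third heavy chain, MYH14, differed by -0.09 and did not pass. Of the light chains, MYL6 (0.18) and MYL12A (0.16) rose, and MYL12B (0.08), MYL9 (0.07) and MYL6B (-0.07) did not pass. Other probe sets of the same genes read differently, from -0.09 to 0.68 for MYH10, 0.13 to 0.67 for MYL6 and 0.16 to 0.43 for MYL12A.

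The 1 fall was CIT, citron kinase of the midbody, which read 6.96, 7.32 and 7.30 with blebbistatin against 7.61, 7.64 and 7.90 as the lowest, median and highest DMSO values (-0.50 ± 0.11, adjusted p = 0.000263). It lay below DMSO in every array, while its other probe set gave -0.05 and did not pass.

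The actin and SRF counts are set beside the 5.67% of all genes that rose and the 8.48% that fell. Of 38 measured actin genes 10 rose and 1 fell, with a median of 0.12. VASP, which speeds filament growth (0.41), the Arp2/3 subunits ARPC3 (0.36) and ARPC2 (0.29), the capping subunit CAPZB (0.34) and the tropomyosin TPM4 (0.27) rose, and LIMK2, the kinase that inactivates cofilin, fell (-0.40). VASP read 9.75, 9.73 and 9.72 against 9.05, 9.39 and 9.53 in DMSO arrays. LIMK2 read 7.37, 7.28 and 7.38 against 7.45, 7.79 and 8.01. Both separated from DMSO by a narrow gap. Among 17 measured targets of SRF and its actin-sensing partner MRTF, 2 rose, FHL2 (0.68) and ACTA2 (0.24), and JUNB fell (-0.17). The actin list had 5 rises when the fit held only the groups compared.

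MYC and ribosome biogenesis genes were lower. Of 29 measured genes 22 fell and 3 rose, with a median of -0.31, where 8.48% of all genes fell and 5.67% rose. MYC read 9.88, 10.09 and 10.04 with blebbistatin against 10.38, 10.66 and 10.94 as the lowest, median and highest DMSO values and 11.21 and 11.14 in medium (-0.65 ± 0.08, adjusted p = 2.49e-09). NOP16, a nucleolar protein, read 9.67, 9.55 and 9.58 against 9.92, 10.10 and 10.32 (-0.50 ± 0.09). Blebbistatin arrays were the lowest and medium arrays the highest for both. The MYC antagonists MXD1 (0.51) and MXI1 (0.41), which compete for the partner MAX, were among the 3 risers, MXI1 being named after its value was seen. The other probe set of MXD1 gave -0.0024.

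Cholesterol and fatty acid synthesis had 12 falls and no rise among 26 measured genes, with a median of -0.27. Over all genes 8.48% fell and 5.67% rose. FADS1, a fatty acid desaturase, fell by 0.52 and SCD, stearoyl-CoA desaturase, by 0.46. Glycolysis and hypoxia genes had 10 falls and no rise among 29, led by ANKRD37, a hypoxia-induced gene (-0.92), and HK2, hexokinase 2 (-0.73). Their second probe sets gave 0.0043 and -0.33, neither past the test. Of 32 unfolded protein and ATF4 response genes 12 fell and 1 rose, led by SDF2L1 (-0.62) and HSPA5, the chaperone BiP (-0.39), of the endoplasmic reticulum. HK2 read 8.37, 8.24 and 8.25 with blebbistatin, against 8.63 to 9.32 in DMSO arrays and 9.76 and 9.79 in medium, and HSPA5 read 11.10, 11.62 and 11.62 against 11.57 to 12.01, so that only HK2 separated. The 22 measured NRF2 and metal response genes had none past the test, and 24 of the mitochondrial respiratory chain had 1 in each direction.

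Immune signalling lists outside the interferon list are set beside the 5.67% of all genes that rose and the 8.48% that fell. Of 21 measured NF-kappaB subunits and feedback genes 8 rose and 1 fell, with TNFAIP2 (0.46), TNFAIP3, the feedback enzyme A20 (0.33), and REL (0.30) the largest. Antigen presentation had 7 rises and 1 fall among 23, led by the costimulatory ligand CD80 (0.57) and the class II chain HLA-DPB1 (0.51). Of 23 chemokines and cytokines 4 rose and 1 fell: CCL20, the CCR6 ligand (0.88), CCL5 (0.62), CXCL13, the B follicle chemokine (0.42), and IL4R (0.26) rose, and CCL22 fell (-0.68). CCL20 read 7.11, 6.78 and 7.01 with blebbistatin against 5.66, 6.10 and 6.34 in DMSO arrays and 7.89 and 7.95 in medium, so blebbistatin lay between both controls. Of 35 migration and adhesion genes 4 rose and 2 fell, with CCR6 at the top and P2RY8, a receptor that confines germinal centre B cells, at the bottom (-0.89). The other probe sets gave -0.09 for P2RY8 and 0.19 for CCL22, neither past the test. Among 24 B and plasma cell factors 4 rose and 3 fell. The plasma cell genes SDC1 (0.63), CD38 (0.46) and PRDM1, the regulator BLIMP1 (0.40), rose, and so did BACH2, the B cell factor that represses PRDM1 (0.39). BCL6, the germinal centre factor (-0.45), ID3 (-0.57) and BATF (-0.19) fell, BATF being named after its value was seen. B cell receptor signalling had 1 rise among 20 genes.

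The dose comparison asked which of these differences were larger at 100 uM than at 10 uM. Between the doses 547 genes differed, 3.00% of those tested, 262 higher (1.44%) and 285 lower (1.56%) at 100 uM, with 3 arrays against 2. The array left out, 10 uM replicate 3, had an upper quartile of 7.41. Blebbistatin 10 uM against DMSO gave 964 genes (5.29%), 300 higher (1.64%) and 664 lower (3.64%), from the same DMSO arrays. The counts rested on single arrays: without 10 uM replicate 1 or 2, the dose count was 264 or 75 and the 10 uM count 426 or 49. With all arrays kept, the dose count was 1 and the 10 uM count 0 (limma, 2072 at an unadjusted p under 0.05). The dose count was also 264 without 100 uM replicate 1, and the 10 uM count was 1783, 631 and 612 without DMSO replicate 2, 5 and 6.

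At 10 uM most p53 targets were higher than in DMSO, while IFIT2 (-0.15) and IFIT3 (-0.22) did not pass. IFIT2 read 6.73, 7.04 and 7.04 at 100 uM against 4.66 and 4.63 at 10 uM, which lay within the DMSO range (2.29 ± 0.27, adjusted p = 2.9e-08). IFIT3 read 6.29, 6.64 and 6.46 at 100 uM against 5.09 and 5.04 at 10 uM (1.40 ± 0.26). Of 42 interferon-stimulated genes, 8 were higher at 100 uM than at 10 uM (median 0.18), and 1 rose at 10 uM over DMSO (median -0.0043). Of 37 p53 targets, 4 were higher at 100 uM than at 10 uM (median 0.17), while 23 rose and none fell at 10 uM over DMSO (median 0.34). TP53I3 read 9.85, 10.00 and 9.95 at 100 uM against 9.58 and 9.72 at 10 uM, a difference of 0.28 ± 0.10 that did not pass. CCR6 read 8.38, 8.79 and 8.59 against 8.67 and 8.69, a difference of -0.09 ± 0.13 that did not pass, with overlapping values.

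Some S phase and mitotic genes were lower at 100 uM than at 10 uM. CCNE2 read 6.15, 6.41 and 6.13 at 100 uM against 7.32 and 7.47 at 10 uM (-1.17 ± 0.24, adjusted p = 0.00141), and 10 uM did not pass against DMSO (-0.34 ± 0.21). CCNE1 read 7.62, 7.46 and 7.55 at 100 uM against 8.14 and 8.09 at 10 uM (-0.57 ± 0.15), and fell at 10 uM too (-0.84 ± 0.13). At 10 uM, CCNE2 sat inside the DMSO range and CCNE1 between DMSO and 100 uM. Of 30 origin genes 13 were lower at 100 uM than at 10 uM, and 15 fell and 1 rose at 10 uM over DMSO. Of 37 mitotic genes 17 were lower at 100 uM than at 10 uM, and 10 fell at 10 uM. The largest dose differences also held DUSP8, a MAP kinase phosphatase (1.20), DTNA, dystrobrevin alpha (1.07), SH3RF2 (0.96), CCDC85A (-0.91), H2AC11, a histone H2A (-0.87), and MAD2L1, of the spindle checkpoint (-0.82). DUSP8 did not pass at 100 uM over DMSO (0.35), and its 10 uM value was lower than DMSO (-0.86).

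**Figure D4:**
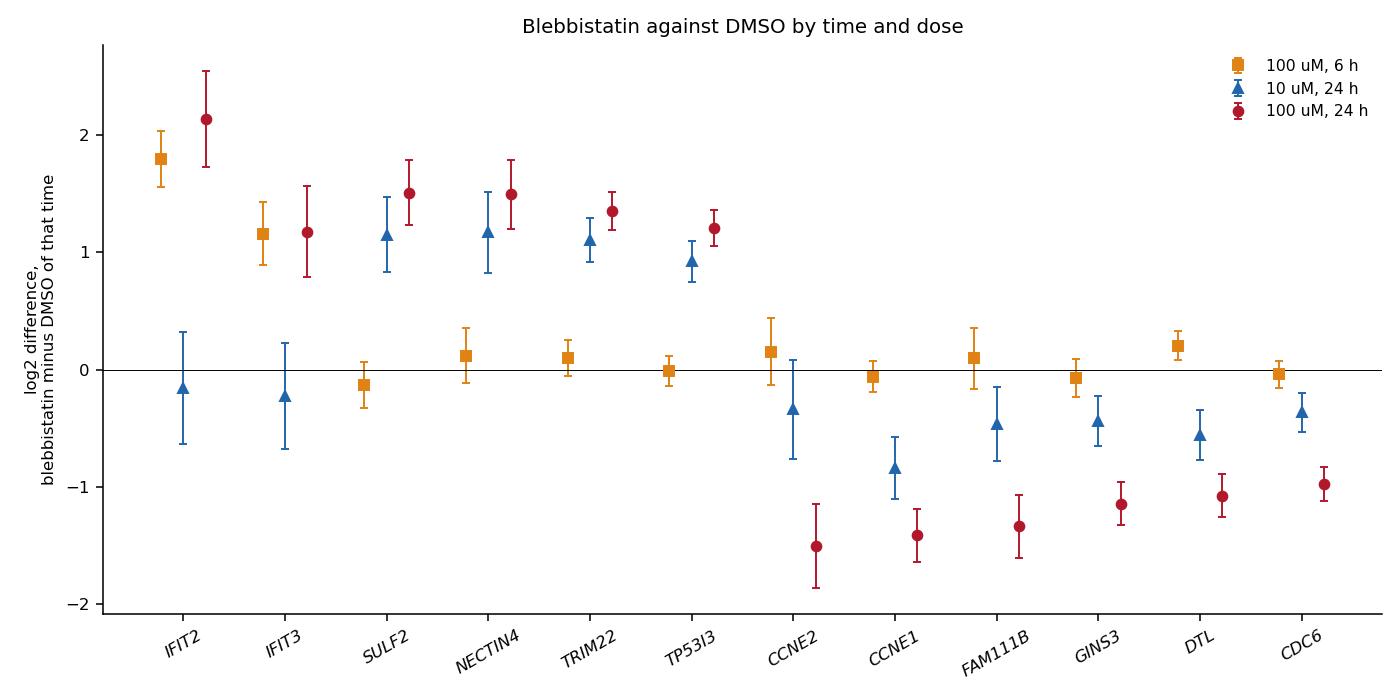
Log2 difference from DMSO of the same time (y axis) with 95% intervals for 12 genes, for blebbistatin 100 uM at 6 h, 10 uM at 24 h and 100 uM at 24 h. IFIT2 is high at 100 uM at both times (1.80 and 2.14) and not at 10 uM (-0.15), while TP53I3 is near 0 at 6 h and high at both doses at 24 h (0.92 and 1.21).

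The 6 h arrays asked which differences came first. At 6 h, 472 genes differed between blebbistatin 100 uM and DMSO (2.59%), 304 higher (1.67%) and 168 lower (0.921%), with 3 arrays against 8. Without blebbistatin replicate 1, 2 or 3 the count was 197, 203 or 195, and without DMSO replicate 2 it was 716. IFIT2 read 8.93, 8.97 and 8.61 with blebbistatin against 6.77 to 7.41 in DMSO arrays of 6 h (1.80 ± 0.12, adjusted p = 9.51e-22). IFIT3 read 8.32, 8.12 and 8.03 against 6.41 to 7.51 (1.16 ± 0.14). Both groups had higher levels at 6 h than at 24 h, and the blebbistatin arrays stood clear of DMSO at both times. CXCL8, the neutrophil chemokine, read 9.70, 9.29 and 9.29 with blebbistatin against 7.61, 7.89 and 8.13 as the lowest, median and highest DMSO values of 6 h (1.55), and CXCL10 6.82, 6.94 and 6.88 against 5.60, 6.05 and 6.41 (0.82). Neither chemokine passed at 24 h (0.28 and -0.10).

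Of the 15 largest rises of 24 h, 4 had passed at 6 h, IFIT2, IFIT3, CCR6 (0.59) and DRAM1 (0.40). Of the 15 largest falls 2 passed at 6 h, GALR2 lower (-0.46) and CDT1 higher than DMSO (0.33).

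Of 24 measured immediate early and AP-1 genes 5 rose and 1 fell at 6 h, with a median of 0.04, and 18 did not pass. Over all genes 1.67% rose and 0.921% fell at 6 h. The orphan nuclear receptors NR4A3 (0.81) and NR4A2 (0.78) rose, and NR4A2 was lower than DMSO at 24 h (-0.40). KLF6 rose at 6 h (0.52) and at 24 h (0.57), and JUN likewise (0.34 and 0.63). Of 17 SRF and MRTF targets 4 rose at 6 h, EGR3 (0.67), FOS (0.62), FOSB (0.52) and EGR4 (0.47), named after their values were seen. The largest falls of 6 h were DHRS2, a short-chain dehydrogenase (-0.96), CCL1, a chemokine (-0.77), SLC4A8, a bicarbonate transporter (-0.73), HTR2B, a serotonin receptor (-0.64), and PGBD3 (-0.57). DHRS2 (-0.25) and CCL1 (0.04) did not pass at 24 h. MYC (-0.51) and NOP16 (-0.52) were lower already at 6 h.

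The p53 and cell cycle lists moved between 6 and 24 h. At 6 h 4 of 37 p53 targets rose and 1 fell (median 0.04), none of 30 origin genes fell and 2 rose (median 0.07), and 2 of 37 mitotic genes fell (median -0.10). The change of the difference between the times passed for 719 genes (3.94%), 214 upward (1.17%) and 505 downward (2.77%), and for none with all arrays kept (limma, 0 adjusted and 146 at an unadjusted p under 0.05). It passed upward for 23 of 37 p53 targets and downward for 24 of 30 origin, 26 of 30 DNA synthesis and 25 of 37 mitotic genes. SULF2, 6.47, 6.11 and 6.28 with blebbistatin against 6.03 to 6.61 in DMSO arrays at 6 h, changed by 1.64 ± 0.22, and CCNE2 by -1.66 ± 0.28. SULF2 overlapped fully at 6 h and not at all at 24 h. Of 42 interferon-stimulated genes 2 changed upward, and the changes of IFIT2 (0.34 ± 0.26) and IFIT3 (0.02 ± 0.29) did not pass.

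At 12 h all 3 blebbistatin arrays had upper quartiles below 8, at 7.48, 7.38 and 7.94, so values are given without a test. IFIT2 read 5.73, 7.03 and 7.96 with blebbistatin, against 5.14, 5.53, 5.56 and 6.09 in the 4 kept DMSO arrays. CCNE1 read 5.18, 5.59 and 8.19, against 8.10, 7.79, 8.23 and 8.27. Replicate 3 was close to DMSO for CCNE1 and highest for IFIT2, and the other blebbistatin arrays had the lowest signal.

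Vincristine and monastrol were set directly against blebbistatin at 24 h. Against vincristine 0.01 uM 1608 genes differed (8.82%), 757 higher (4.15%) and 851 lower (4.67%) with blebbistatin, 3 arrays each. Against monastrol 100 uM 5402 genes differed (29.6%), 2777 higher (15.2%) and 2625 lower (14.4%), with 3 arrays against 2. The kept monastrol arrays had bioB levels of 11.40 and 11.36, against 8.53 to 9.42 with blebbistatin, and ACTB differences of 0.56 and 0.62, against 0.07 to 0.26. The part of array quality in this comparison was not tested. With all arrays kept, the counts were 0 against vincristine (limma, 223 at an unadjusted p under 0.05) and 56 against monastrol.

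Most p53 targets were higher with blebbistatin than with monastrol. The list averaged 9.20, 9.29 and 9.21 with blebbistatin, against 9.22, 9.23 and 9.19 with vincristine and 8.84 and 8.74 with monastrol. Against vincristine 2 of 37 were higher and 3 lower (median 0.03), and against monastrol 25 were higher and 1 lower (median 0.41). TP53I3 read 9.85, 10.00 and 9.95 with blebbistatin, against 9.45, 9.45 and 9.54 with vincristine (0.45 ± 0.09) and 9.03 and 8.83 with monastrol (1.00 ± 0.10).

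Most mitotic genes were lower with blebbistatin than with either spindle drug. The origin list averaged 8.67, 8.70 and 8.66 with blebbistatin, against 8.79, 8.73 and 8.65 with vincristine and 8.76 and 8.66 with monastrol. Against vincristine 7 of 30 origin genes were lower and 2 higher (median -0.04). Single genes differed more from monastrol, with 12 of 30 lower and 6 higher (median -0.08, range -0.955 to 0.995). Of all genes, 14.4% were lower and 15.2% higher than with monastrol. CCNE2 differed from vincristine by 0.01 ± 0.21 and from monastrol by 0.48 ± 0.24, neither past the test. The mitosis list averaged 9.11, 9.19 and 9.13 with blebbistatin, against 9.73, 9.68 and 9.61 with vincristine and 9.79 and 9.75 with monastrol. With blebbistatin 29 of 37 mitotic genes were lower than with vincristine and 2 higher (median -0.57), and 31 were lower and 1 higher than with monastrol (median -0.67). CCNA2 read 9.23, 9.43 and 9.37 with blebbistatin, against 10.04, 10.01 and 10.09 with vincristine and 10.00 and 10.09 with monastrol. CDC20, the activator of the anaphase-promoting complex, differed by -1.22 from vincristine and -1.32 from monastrol, and CCNB1, mitotic cyclin B1, by -1.02 and -0.86. Both are named after their values were seen.

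Clustered histones were lower with blebbistatin than with either spindle drug, 11 of 22 against vincristine (median -0.41) and 12 of 22 against monastrol (median -0.45), and none were higher. H2BC5, a histone H2B, read 8.97, 8.87 and 8.91 with blebbistatin, against 10.47, 10.39 and 10.30 with vincristine and 10.75 and 10.62 with monastrol. Blebbistatin thus stood near DMSO for H2BC5 (0.07), and both spindle drugs above it. IFIT2 read 6.73, 7.04 and 7.04 with blebbistatin, against 5.84, 5.44 and 6.01 with vincristine (1.17 ± 0.24) and 4.41 and 5.28 with monastrol (2.09 ± 0.27). The other largest differences from vincristine were CD200R1, an inhibitory receptor (1.07), NOL4L (1.00), INSM1, a neuroendocrine factor (0.93), NR4A2 (-1.54), H2BC15 (-1.47), the linker histone H1-2 (-1.34) and GALR2 (-1.34). Those from monastrol were MVP, the major vault protein (1.90), NOL4L (1.87), HDAC8, a histone deacetylase (1.82), RFX7 (1.81), PRR11 (-1.79), and the H2A histones H2AC6 (-1.68) and H2AC16 (-1.54).

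**Figure D5:**
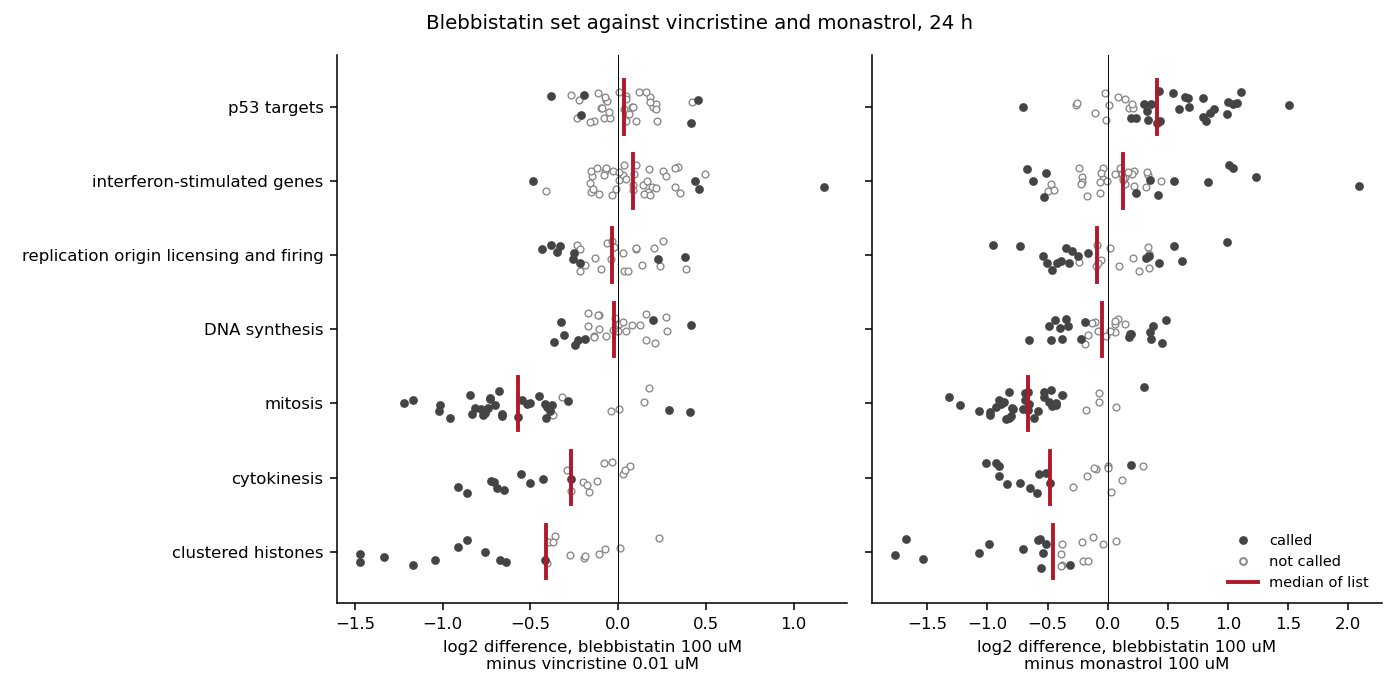
Log2 difference (x axis) of blebbistatin 100 uM minus vincristine 0.01 uM (left) and minus monastrol 100 uM (right) at 24 h for each measured gene of 7 lists (rows), filled where the adjusted p was under 0.05, with a red line at the median. The mitosis list lies to the left in both panels (medians -0.57 and -0.67), and the p53 list lies near 0 against vincristine (0.03) and to the right against monastrol (0.41).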

How the data were processed

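The values are log2 probe set levels that the authors deposited for 282 arrays, made with RMA per the submitters' processing notes; its version and the array annotation are not given in the sources used here. Of 49386 probe sets, 45253 were paired with 1 gene in the platform annotation, 1327 with several and 2800 with none listed, and 93 were controls. Each of 18239 genes was represented by 1 probe set, the one with the highest average across the 282 arrays; 11822 genes had several. Arrays with an upper quartile under 8 were left out (0 of 94 at 6 h, 31 at 12 h, 17 at 24 h). A mean per group was fitted with limma 3.58.1 (R 4.3.3) to all kept arrays of a time (77 arrays at 24 h), with a trend in the prior variance and Benjamini-Hochberg adjustment over all genes, and a gene passed at an adjusted p under 0.05. The change between times was fitted to all 234 kept arrays. The procedure was tested on simulated data. Differences are first group minus second on the log2 scale, and ± is the moderated standard error. Arrays carry no counts, so their number limits the precision.

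Named genes were the 15 largest rises and falls without overlap between groups, up to 6 called members of each list, the myosin II genes (not all are reported here), the 5 largest differences each way in the other comparisons, and the markers. Members, lists and rules were chosen with earlier results of these data known. Lists are described by counts and medians, with no test of their own. Of 259 named genes 193 had several probe sets, which all had the same sign in 134, and none had an opposite probe set past the test. Comparisons with DMSO share their DMSO arrays. Alternatives were all arrays, only the groups compared, array weights, a replicate block, no prior trend, a mean over probe sets, a filter on the lowest 40% of levels, a further quantile normalization, an ACTB limit and each array left out. Leaving out DMSO replicates 5 and 6, and bioB as a covariate, were chosen after seeing the data. Promoters came from RefSeq (GRCh38.p14).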

Additional observations from a re-analysis of the deposited data

Results flagged for a closer look

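For the 30 genes with the largest rises and falls, DMSO arrays at 24 h and 6 h were searched for single arrays far from the rest of their group, which chance gives in about 1 of 20 checks; 8 of 60 were found, by the share of the group's range taken by the gap. At 24 h, IFIT2 had a gap of 0.600 (replicate 6 at 4.09, the others 4.75 to 5.19), TRIM67 0.595 (replicate 8 at 6.36, the others 5.52 to 5.86), DTL 0.744 (replicate 8 at 9.03, the others 9.35 to 9.46), E2F8 0.611 (replicate 8 at 5.63, the others 6.32 to 6.76) and CDC6 0.737 (replicate 2 at 9.58, the others 9.72 to 9.77). At 6 h, SULF2 had 0.534 (replicate 2 at 6.03, the others 6.34 to 6.61), NECTIN4 0.564 (replicate 2 at 5.37, the others 5.68 to 5.92) and CDT1 0.562 (replicate 7 at 9.49, the others 9.33 to 9.40).

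The same 30 genes were chosen for a large difference at 24 h, which favours a change from 6 h. Their count therefore gives no separate support. Over all genes, 719 passed the test of the change (3.94%). The difference between blebbistatin 100 uM and DMSO changed between 6 and 24 h, by the test of the change itself, in 24 of the 30 genes. It moved upward for SULF2 (1.64), NECTIN4 (1.38), TRIM22 (1.26), TP53I3 (1.22), TENM1 (1.11), TRIM67 (1.07), SESN1 (1.06), RRM2B (0.97), ANXA4 (0.82), DPYS (0.78), NOL4L (0.70) and DRAM1 (0.54). It moved downward for CCNE2 (-1.66), FAM111B (-1.43), CCNE1 (-1.35), DTL (-1.28), CDT1 (-1.27), E2F8 (-1.23), CDC25A (-1.17), ORC1 (-1.11), GINS3 (-1.07), TICRR (-1.03), ZRANB3 (-1.03) and CDC6 (-0.93).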

How the results depend on the processing

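Of the 30 largest rises and falls, those tested kept their direction under the alternatives run, and passed except with all arrays kept, where 6 did; leaving out the lowest 40% of levels tested 29 of them. The count for 100 uM against DMSO, 2582, was 9 with all arrays kept, 1453 with only the groups compared, 2923 with bioB as a covariate, 2016 with a replicate block and 1948 to 2888 with 1 array left out. The dose count, 547, was 1 with all arrays, 354 with only the groups compared, 1508 with array weights, 672 with the replicate block and 75 to 479 with 1 array left out. For 10 uM against DMSO, 964, these were 0 (limma, 2072 at an unadjusted p under 0.05), 23, 1881, 154 and 49 to 1783. The 6 h count, 472, was 1882 with array weights, 114 with the block and 195 to 716 with 1 array left out. The change count, 719, was 0 with all arrays (limma, 146 unadjusted), 1711 with weights, 744 with the block and 539 to 769. The monastrol count, 5402, was 56, 2060 and 1736 with all arrays, only the groups compared and weights, 5546 with the block and 4256 to 4724. The vincristine count, 1608, was 0 with all arrays (limma, 223 unadjusted), 835 with only the groups compared, 1774 with the block and 1130 to 1398. The cause was not tested. BCL2 was -0.0153 as a mean of its probe sets. Pairing was checked on each array's deviations from its group mean over all genes. These correlated at -0.199, 0.209 and -0.088 between same-numbered blebbistatin and DMSO arrays. Pairs with different numbers ran from -0.284 to 0.273, so replicate numbers were not used as pairs. Few arrays at 10 uM and with monastrol limit those comparisons.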

Other observations

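The arrays of medium alone differed from the DMSO arrays in some genes, of which only some also separated blebbistatin from DMSO. The medium values are given without a test. CXCL10, an interferon-induced chemokine, read 5.60, 5.50 and 6.19 with blebbistatin, against 5.61 to 6.22 with DMSO and 8.28 and 8.81 in medium. CCL5 read 10.16, 10.30 and 10.21 with blebbistatin, against 9.30 to 9.95 with DMSO and 8.66 and 8.59 in medium. P2RY8 read 6.76, 6.74 and 6.55 with blebbistatin, against 7.27 to 8.19 with DMSO and 9.05 and 9.18 in medium. For CCL5 and P2RY8 the DMSO arrays thus lay between medium and blebbistatin, and for CXCL10 DMSO and blebbistatin lay together, apart from medium. The p53 list averaged 9.20 to 9.29 with blebbistatin, against 8.64 to 8.74 with DMSO and 8.70 and 8.71 in medium, so both controls lay together.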
